A study of Mus musculus with 6 samples.

Results

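The primary cilium is a single sensory projection of the cell surface, and 40 mouse genes that build, supply or gate it were examined here in the developing cerebral cortex. The genes were taken by symbol from a list of ciliary parts, and that list was chosen with earlier results of these data known. All 40 were found among the 24041 genes of the count table. RNA was measured in 6 libraries of cortical cells that took up plasmids by electroporation, in which electric pulses open the membrane, and were isolated by the green fluorescent protein (GFP) they then made. In 3 libraries the cells had received GFP with mutant PRPF6, and in the other 3 GFP with wild-type PRPF6. PRPF6 is a core protein of the spliceosome's tri-snRNP particle. Every library therefore carries a GFP plasmid and a PRPF6 plasmid, and no group went without added PRPF6. The labels do not name the mutation, the species of the PRPF6 sequence, the promoter that drives it, or the strain and age of the mice. Nor do they tie libraries to separate animals, so p-values cover the spread among these 6 libraries alone, and part of it may be technical.

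A primary cilium grows from a centriole docked at the cell membrane. Intraflagellar transport (IFT) trains, built of IFT-B and IFT-A subunits, carry its building material, moving outward on kinesin-II and back on the ciliary dynein. The BBSome is a coat that sorts membrane proteins onto these trains, and the transition zone at the cilium base is the gate that decides what enters. In the embryonic cortex, radial glia, the neural stem cells, hold a primary cilium in the ventricle, and signals such as Sonic hedgehog are read through it.

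The 6 libraries held 45115122 to 60600617 expected counts each. Genes of cortical identity (14) were present in every library, with summed levels of 2505 to 4357 CPM (depth-scaled counts, on the usual per-library scale) in the mutant libraries and 3984 to 5305 CPM in the wild-type libraries. Prpf6 was at 131, 145 and 125 CPM in the mutant libraries, against 166, 124 and 131 CPM in the wild-type libraries, and the groups overlapped. These are counts of the mouse gene. As the species of the plasmid sequence is not named, they do not show how strongly either plasmid was expressed. Markers of other cells differed between libraries. The summed level of 14 red blood cell gene symbols was 80.2 to 1470 CPM in the mutant libraries and 993 to 16889 CPM in the wild-type libraries. The highest value was in wild-type replicate 3. Among these symbols Hbb-bt and Hbb-b2 had identical values in every library, so the 14 are not all separate measures. Radial glia genes (12) summed to 5193, 2795 and 4055 CPM in mutant replicates 1, 2 and 3, against 2289, 2762 and 1964 CPM in wild-type replicates 1, 2 and 3. Neuron genes (12) summed to 1547, 2754 and 2000 CPM in the mutant libraries, against 3477, 2760 and 3304 CPM in the wild-type libraries. In sorted bulk RNA, fewer cells of a type and less RNA per cell cannot be told apart.

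All 40 cilium genes were expressed well enough to be tested, with mean levels of 6.16 to 154 CPM and a median of 30.7 CPM, against a median of 28.6 CPM over all 14451 tested genes. Set per kilobase of exon, so that genes can be compared with each other, the 6-library mean ran from 1.11 to 104 CPM per kb. Arl3, a small GTPase that releases lipid-bearing cargo inside the cilium, had the highest level per length, 85.0 to 115 CPM per kb over the 6 libraries. Next came the small IFT subunits Ift27 (mean 70.8 CPM per kb), a GTPase of the IFT-B train, and Ift43 (62.85 CPM per kb), of the IFT-A train. The kinesin-II motor subunit Kif3a followed at 47.6 CPM per kb. The lowest levels belonged to Tctn1, a tectonic of the transition zone, at 1.11 CPM per kb, to Invs (inversin) at 1.32 and to the transition zone scaffold Rpgrip1l at 1.34. In this order of 40 genes, 0 of 39 neighbouring pairs had ranges over the 6 libraries that lay apart, so the order fixes high and low genes but not neighbours.

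**Figure D1:**
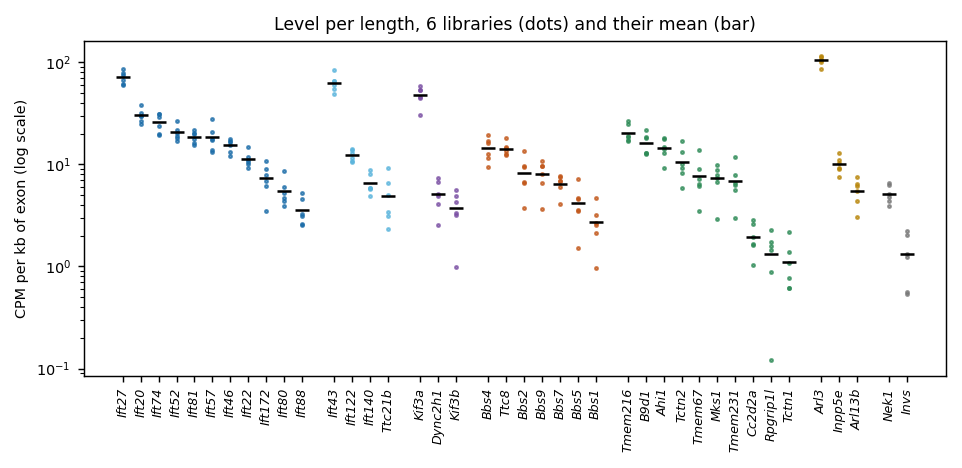
Level per length of each of the 40 cilium genes, in CPM per kb of exon on a log axis, grouped by role. Dots are the 6 libraries and black bars their means. Arl3 sits highest at a mean of 104 CPM per kb and Tctn1 lowest at 1.11 CPM per kb, and Rpgrip1l has the widest spread between libraries.

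The comparison asks which of these genes differ with the PRPF6 form that the cells received. No cilium gene passed the test: 0 of 40 had an adjusted p under 0.05 (quasi-likelihood F-test in edgeR, Benjamini-Hochberg over all 14451 genes, lowest adjusted p = 1.00), where the share over all tested genes was 0.00%. At an unadjusted p under 0.05 stood 3 genes (7.5%, against 3.38% of all tested genes). Of these 1 was higher with mutant PRPF6, Ttc21b (2.5% of the members, against 2.18% of all tested genes), and 2 were lower, Kif3a and Bbs4 (5.0%, against 1.20%). limma-voom also called 0 of the 40 and put 4 under 0.05 before adjustment. With DESeq2 the numbers were 0 and 3, but it gave no adjusted p for 38 of the 40.

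As a set the cilium genes did not lean either way. Their log2 differences, mutant minus wild-type, were positive in 19 and negative in 21 (47.5% positive, against 49.8% of all tested genes). The median was −0.0042, beside −0.0013 over all tested genes. The mutant libraries were all higher than the wild-type ones for 1 gene (2.5%, against 4.62% of all tested genes), and below them for 3 genes (7.5%, against 4.52%). Together these are 4 of 40 members, a share near the 9.14% found over all tested genes. They are Ttc21b above, and Kif3a, Bbs4 and Bbs9 below. The median standard error of a member's log2 difference was 0.32, and 14 of 40 differences were larger than their own standard error.

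**Figure D2:**
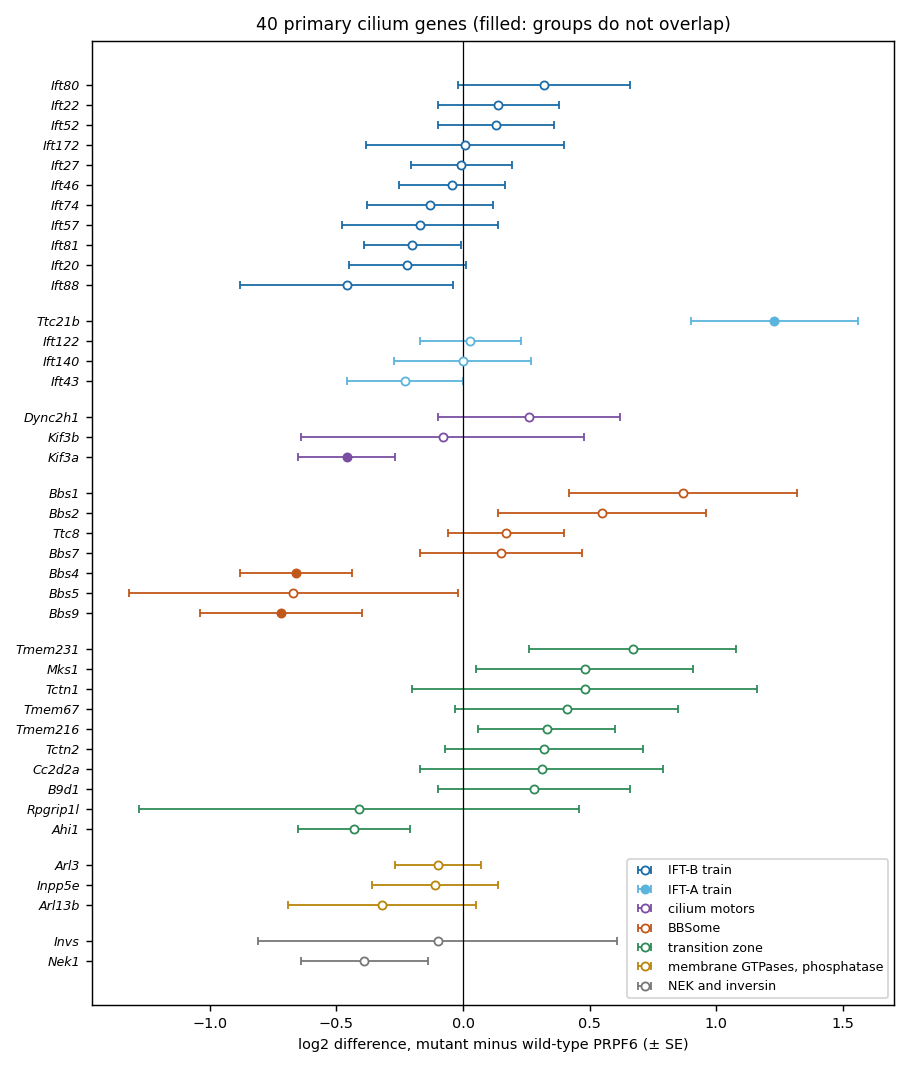
Log2 difference, mutant minus wild-type PRPF6, of each of the 40 cilium genes by role, with its standard error (3 libraries per group). Filled points mark the 4 genes whose groups do not overlap. Ttc21b lies farthest out at 1.23, Bbs9 lowest at −0.72, and 8 of 10 transition zone genes lie right of 0.

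The IFT-B train was close to level between the groups. Of its 11 genes 4 had higher and 7 lower fitted means with mutant PRPF6, with log2 differences of −0.46 to 0.32 and a median of −0.043, and 0 were at an unadjusted p under 0.05. Ift88, a subunit whose loss stops cilium growth in mice, was at 9.96, 9.58 and 8.10 CPM in mutant replicates 1, 2 and 3, against 14.0, 7.79 and 16.3 CPM in wild-type replicates 1, 2 and 3. The groups overlapped because wild-type replicate 2 was the lowest of all 6 libraries (log2 difference −0.46 ± 0.42, SE). Ift81, which binds tubulin for the train together with Ift74, was at 59.0, 46.0 and 47.6 CPM in the mutant libraries, against 64.1, 59.4 and 52.2 CPM in the wild-type libraries (−0.20 ± 0.19, SE). Only mutant replicate 1 reached into the wild-type range. Ift27, the most abundant IFT-B gene per length, was at 85.7, 65.5 and 81.9 CPM with mutant PRPF6, against 73.1, 94.1 and 66.8 CPM with wild-type PRPF6 (−0.0065 ± 0.20, SE). Ift172, a large adaptor at the turning point of the trains, had the widest spread within a group relative to its mean among the IFT-B genes. It was at 42.2, 58.8 and 18.8 CPM with mutant PRPF6, against 48.9, 37.2 and 33.1 CPM with wild-type PRPF6. Its means were 39.9 ± 20.1 CPM with mutant and 39.7 ± 8.16 CPM with wild-type PRPF6 (SD, n = 3 each). The remaining IFT-B subunit genes had overlapping groups, and over the 6 libraries Ift20 ranged from 28.2 to 43.4 CPM, Ift22 from 30.3 to 49.2, Ift46 from 51.4 to 74.1, Ift52 from 38.4 to 60.2, Ift57 from 35.0 to 74.2, Ift74 from 51.2 to 81.8 and Ift80 from 16.2 to 35.2 CPM.

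The IFT-A train held the largest difference of the 40 genes. Ttc21b, an IFT-A subunit whose loss in mice disturbs forebrain patterning, was at 41.2, 22.4 and 29.2 CPM in mutant replicates 1, 2 and 3, against 10.4, 14.0 and 15.3 CPM in wild-type replicates 1, 2 and 3. Every mutant library was above every wild-type library, and mutant replicate 1 was the highest. The means were 30.9 ± 9.55 CPM with mutant and 13.2 ± 2.55 CPM with wild-type PRPF6 (SD, n = 3 each). The log2 difference was 1.23 ± 0.33 (SE; edgeR unadjusted p = 0.00548, adjusted p = 1.00). Leaving out any 1 library gave log2 differences of 0.96 to 1.41, the lowest without mutant replicate 1. For a single gene, 3 libraries against 3 cannot give an exact permutation p below 0.10, which is the value any gene without overlap can reach at best.

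The other IFT-A genes did not share that difference. Ift122 was at 55.0, 59.0 and 45.9 CPM with mutant PRPF6, against 45.8, 61.4 and 49.5 CPM with wild-type PRPF6 (log2 difference 0.029 ± 0.20, SE). Ift140 was at 37.9, 67.5 and 45.4 CPM with mutant PRPF6, against 61.6, 44.2 and 45.2 CPM with wild-type PRPF6 (−0.0018 ± 0.27, SE). Both are core IFT-A subunits, and both had fully mixed groups. Ift43, a small IFT-A subunit, was at 48.3, 39.1 and 52.6 CPM in the mutant libraries, against 67.8, 52.8 and 43.7 CPM in the wild-type libraries (−0.23 ± 0.23, SE).

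Among the motors, Kif3a was lower in every mutant library. Kif3a, the kinesin-II motor subunit that pairs with Kif3b and also serves transport in neurons, was at 147, 144 and 97.4 CPM in mutant replicates 1, 2 and 3, against 174, 173 and 188 CPM in wild-type replicates 1, 2 and 3. The means were 129 ± 27.7 CPM with mutant and 178 ± 8.57 CPM with wild-type PRPF6 (SD, n = 3 each). The log2 difference was −0.46 ± 0.19 (SE; edgeR unadjusted p = 0.0378, adjusted p = 1.00). Mutant replicate 3 was the lowest, and without it the log2 difference was −0.30 (unadjusted p = 0.0865). The unadjusted p was also above 0.05 without wild-type replicate 1, 2 or 3 (0.0672, 0.0694 and 0.104).

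The partner gene Kif3b was not lower in the same way. It was at 5.61, 31.3 and 24.2 CPM with mutant PRPF6, against 27.9, 18.7 and 18.1 CPM with wild-type PRPF6 (log2 difference −0.081 ± 0.56, SE), and mutant replicate 1 stood far below the other 5 libraries. Dync2h1, the heavy chain of the ciliary dynein that pulls trains back, was at 96.7, 71.2 and 73.8 CPM in the mutant libraries, against 106, 59.0 and 36.8 CPM in the wild-type libraries (0.26 ± 0.36, SE). Its sign turned, to −0.026, without wild-type replicate 3. Kifap3, the adaptor that completes kinesin-II, was listed with other cilium genes and was at 60.4, 83.4 and 67.1 CPM in the mutant libraries, against 112, 105 and 100.3 CPM in the wild-type libraries. Its groups did not overlap (−0.59 ± 0.18, SE; edgeR unadjusted p = 0.0107, adjusted p = 1.00). Kif3a and Kifap3 were thus both lower where the summed neuron markers were 1547 to 2754 CPM, against 2760 to 3477 CPM with wild-type PRPF6, and the part of those cells in either difference was not tested.

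The BBSome genes went in opposite directions. Of 7 genes, 4 had higher and 3 lower fitted means with mutant PRPF6, with log2 differences of −0.72 to 0.87 and a median of 0.15. Bbs4, a subunit that also links to centriolar satellites, was at 28.9, 31.5 and 23.6 CPM in mutant replicates 1, 2 and 3, against 42.8, 40.8 and 48.6 CPM in wild-type replicates 1, 2 and 3. Its groups were well apart, with means of 28.0 ± 4.01 CPM with mutant and 44.1 ± 4.06 CPM with wild-type PRPF6 (SD, n = 3 each). The log2 difference was −0.66 ± 0.22 (SE; edgeR unadjusted p = 0.0178, adjusted p = 1.00), and −0.75 to −0.55 with any 1 library left out. The unadjusted p passed 0.05 without mutant replicate 3 (0.0525) or wild-type replicate 3 (0.0739).

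Bbs9, a core BBSome subunit, was at 13.0, 28.8 and 23.6 CPM with mutant PRPF6, against 38.4, 34.5 and 34.5 CPM with wild-type PRPF6. The groups did not overlap, but mutant replicate 1 was well below the others (log2 difference −0.72 ± 0.32, SE; edgeR unadjusted p = 0.0558, adjusted p = 1.00), and without it the difference was −0.45. Bbs1, the subunit that reads sorting signals and meets the GTPase Arl6, went the other way, at 27.5, 18.7 and 14.9 CPM with mutant PRPF6, against 5.63, 15.5 and 12.4 CPM with wild-type PRPF6. Only mutant replicate 3 reached into the wild-type range (0.87 ± 0.45, SE; edgeR unadjusted p = 0.0922, adjusted p = 1.00). Bbs2, another core subunit, was highest in mutant replicate 1 (41.0 CPM) and lowest in wild-type replicate 1 (11.4 CPM), with the other 4 libraries at 20.2 to 29.5 CPM. Bbs5, a lipid-binding subunit, showed the reverse, with 2.24 CPM in mutant replicate 1, 10.6 CPM in wild-type replicate 1 and 5.15 to 6.90 CPM elsewhere. Bbs7, which forms the core with Bbs2 and Bbs9, ranged from 12.7 to 23.8 CPM (log2 difference 0.15 ± 0.32, SE). Ttc8 differed by 0.17 ± 0.23 (log2, SE). Ttc8, at 14.3 CPM per kb close to Bbs4 as the most abundant BBSome gene per length, was at 41.8, 29.3 and 33.6 CPM with mutant PRPF6, against 28.4, 30.9 and 33.8 CPM with wild-type PRPF6.

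**Figure D3:**
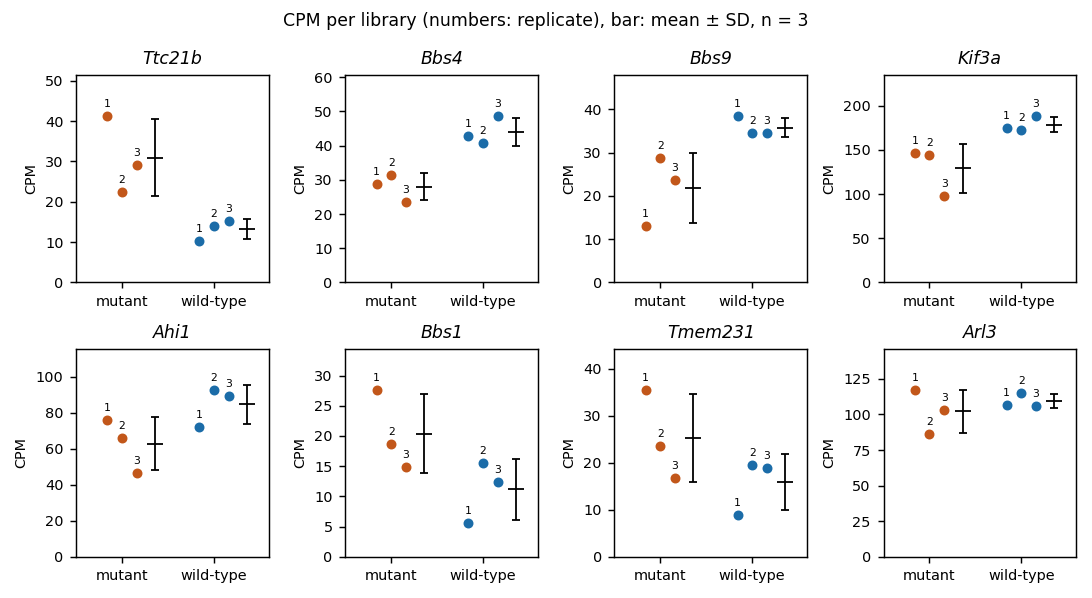
CPM of 8 cilium genes in each library, with mutant libraries in orange left of wild-type libraries in blue, the replicate number above each point, and the mean ± SD (n = 3) as a black bar. The groups are apart for Ttc21b, Bbs4, Bbs9 and Kif3a and overlap for Ahi1, Bbs1, Tmem231 and Arl3.

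The 10 transition zone genes of the list had mostly higher fitted means with mutant PRPF6, 8 of 10, against 49.8% of all tested genes. Their log2 differences were −0.43 to 0.67 (median 0.32). Among 14 further transition zone and nephronophthisis genes outside the 40, 8 were higher and 6 lower, with a median of 0.059. None of the 10 listed genes was at an unadjusted p under 0.05, and for all 10 the groups overlapped. Without mutant replicate 1, 6 of 10 were higher and the median was 0.11. Tmem231, a membrane protein of the gate, was at 35.4, 23.6 and 16.8 CPM in mutant replicates 1, 2 and 3, against 8.98, 19.6 and 18.9 CPM in wild-type replicates 1, 2 and 3 (0.67 ± 0.41, SE). Tmem216, the most abundant of the group per length, was at 28.5, 20.1 and 30.5 CPM with mutant PRPF6, against 21.5, 21.9 and 19.3 CPM with wild-type PRPF6 (0.33 ± 0.27, SE). In both genes a single mutant library kept the groups from parting.

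Tmem67, the Meckelin receptor of the zone, was uneven among the mutant libraries, at 58.3, 37.9 and 14.8 CPM, against 27.0, 25.8 and 30.6 CPM with wild-type PRPF6. Its log2 difference of 0.41 ± 0.44 (SE) was −0.081 without mutant replicate 1 and 0.79 without mutant replicate 3. Mks1, B9d1, Tctn1, Tctn2 and Cc2d2a, all parts of the same gate complex, had log2 differences of 0.28 to 0.48, each with a standard error of 0.38 to 0.68. Over the 6 libraries Mks1 ranged from 7.22 to 24.8 CPM, B9d1 from 10.4 to 17.8, Tctn1 from 3.53 to 12.6, Tctn2 from 15.9 to 45.8 and Cc2d2a from 5.68 to 15.7 CPM. The 2 genes with lower fitted means were Ahi1 and Rpgrip1l. Ahi1, the jouberin gene, which is also strongly used in neurons, was at 76.0, 66.2 and 46.7 CPM with mutant PRPF6, against 72.3, 92.4 and 89.3 CPM with wild-type PRPF6 (−0.43 ± 0.22, SE; edgeR unadjusted p = 0.0912, adjusted p = 1.00). Rpgrip1l was at 0.843, 12.2 and 11.2 CPM in the mutant libraries, against 6.23, 10.04 and 15.8 CPM in the wild-type libraries, so that mutant replicate 1 held 49 counts of it. Its highest value was 18.7 times its lowest, the widest span of the 40 genes, where the median span was 2.07-fold.

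The ciliary membrane genes were close between groups. Arl13b, the GTPase that marks the ciliary membrane and activates Arl3, was at 10.7, 19.2 and 21.7 CPM in the mutant libraries, against 22.4, 26.5 and 15.5 CPM in the wild-type libraries (log2 difference −0.32 ± 0.37, SE). Arl3 itself was at 117, 86.4 and 103 CPM with mutant PRPF6, against 107, 115 and 106 CPM with wild-type PRPF6 (−0.10 ± 0.17, SE). Inpp5e, the phosphatase that Arl13b brings into the cilium, ranged from 30.9 to 53.4 CPM (−0.11 ± 0.25, SE). Nek1, a kinase with a role at the cilium base, was at 28.7, 24.7 and 22.0 CPM with mutant PRPF6, against 35.1, 36.6 and 27.0 CPM with wild-type PRPF6 (−0.39 ± 0.25, SE), and mutant replicate 1 alone overlapped the wild-type range. Invs, which marks a compartment near the cilium base, ranged from 3.18 to 11.4 CPM with mutant and from 3.00 to 12.6 CPM with wild-type PRPF6, with no order between groups. Counts of Invs, Inpp5e and Tctn1 included reads divided with other genes, and exons of these genes overlap Tex10, Pmpca and Hvcn1 on the other strand. Exons of Ift57, Ift88, Tmem67 and Nek1 also overlap other annotated genes, so their values are less certain.

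Single libraries weighed on several genes at once. Mutant replicate 1 had the highest value of the 6 libraries for 14 of the 40 genes (35.0%, against 23.3% of all tested genes), among them 6 of 10 transition zone and 4 of 7 BBSome genes. Wild-type replicate 1 had the lowest value for 4 of 7 BBSome genes (57.1%, against 19.5% of all tested genes). Of the IFT-B genes, mutant replicate 2 was lowest for 5 of 11 (45.5%, against 12.7% of all tested genes). These roles hold few genes and were picked after the values were seen. Mutant replicate 1 also had the highest summed radial glia markers, 5193 CPM, and the lowest summed neuron markers, 1547 CPM, while wild-type replicate 1 had the highest neuron markers, 3477 CPM. The part of these cell mixtures in the cilium values was not tested. Wild-type replicate 3, which had the most red blood cell and meningeal RNA, was not unusual for the cilium genes, being highest in 4 and lowest in 3 of 40.

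**Figure D4:**
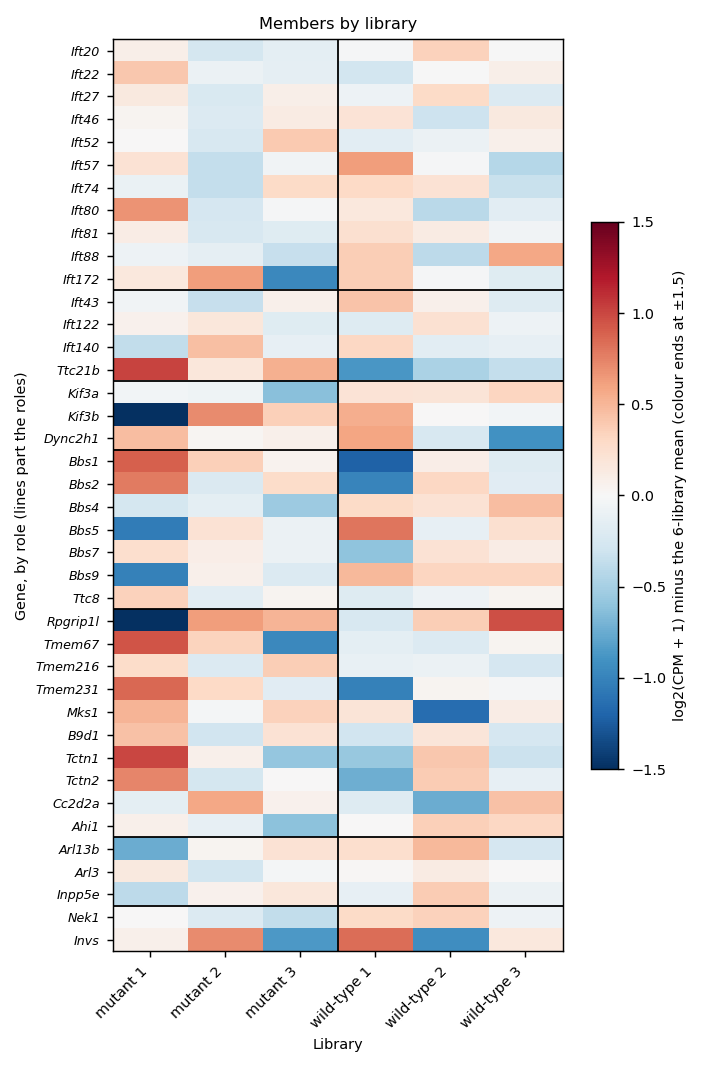
Each cilium gene's log2(CPM + 1) minus its mean over the 6 libraries, red above and blue below, with mutant libraries left of wild-type libraries and lines between the roles. Mutant replicate 1 is red for most transition zone genes and dark blue for Rpgrip1l and Kif3b, and Ttc21b is red in all mutant and blue in all wild-type libraries.

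The promoters of many cilium genes hold an X-box, the DNA element bound by RFX transcription factors, which switch on ciliary genes in animals. RefSeq promoters (GRCm38.p6, 250 bases before to 50 after the start) were matched by symbol for 35 of the 40 genes. The letters GTNNCC, any further pair of bases and then GGNAAC, on either strand, stood in the promoters of 11 of these 35 (31.4%), against 1.49% of 27025 genes with a promoter. A looser form ending in NGNNAC gave 12 of 35 and 5.26%, and a stricter one starting with GTTNCC gave 4 of 35 and 0.529%. The forms overlap each other, and the first was chosen after its counts were seen. By role the match stood in 6 of 9 transition zone, 3 of 7 BBSome and 2 of 9 IFT-B promoters, and in none of 3 IFT-A, 3 motor, 3 membrane and 1 other promoters. The 12 matches, shown so that their letters can be compared between genes, are printed below in the direction of the motif, with the motif in capitals and up to 8 bases on each side.
Ahi1, chr10:20952560-20952589, plus strand: tagtctgaGTTACCTAGGCAACagcggcag
Mks1, chr11:87853183-87853212, plus strand: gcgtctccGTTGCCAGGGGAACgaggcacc
Tctn1, chr5:122264411-122264432, minus strand: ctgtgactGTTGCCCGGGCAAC
Tctn2, chr5:124598679-124598708, minus strand: gaggaccaGTAGCCATGGTAACctccaatc
Tmem216, chr19:10555723-10555752, plus strand: catgttcaGTCCCCATGGAAACtgcgtaca
Tmem231, chr8:111933781-111933810, plus strand: agcgccgaGTCTCCACGGCAACcgacggcg
Bbs1, chr19:4906605-4906634, plus strand: tcccaggcGTCGCCTTGGCAACcagctcag
Bbs4, chr9:59353464-59353493, minus strand: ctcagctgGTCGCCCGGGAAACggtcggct
Bbs7, chr3:36613489-36613518, minus strand: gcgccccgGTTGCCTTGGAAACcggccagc
Ift57, chr16:49699199-49699228, minus strand: ggcagccgGTCACCACGGCAACcagacccg
Ift22 first, chr5:136908079-136908108, minus strand: gctgcgcaGTAGCCCAGGAAACcctgacag
Ift22 second, chr5:136908109-136908138, plus strand: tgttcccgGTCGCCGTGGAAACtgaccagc
The centres of these matches lay from 114 bases before to 43 bases after the annotated start. A match is a stretch of letters, not a shown binding site.

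The 11 genes with a match had higher fitted means with mutant PRPF6 in 8, with a median log2 difference of 0.32, and the 24 promoter-matched genes without one in 8, with a median of −0.089. The 11 genes include 6 transition zone genes, so the grouping by motif and by role is partly the same. Mutant replicate 1 was the highest library for 7 of the 11, where it was highest for 23.3% of all tested genes. Without that library 5 of the 11 were higher, and the median was −0.043, beside −0.053 for the genes without a match. The promoters of the 2 genes whose groups lay farthest apart in each direction by unadjusted p, Ttc21b (higher) and Bbs4 (lower), show both cases, the motif being absent from the first and in capitals in the second.
Ttc21b, chr2:66256568-66256867, minus strand: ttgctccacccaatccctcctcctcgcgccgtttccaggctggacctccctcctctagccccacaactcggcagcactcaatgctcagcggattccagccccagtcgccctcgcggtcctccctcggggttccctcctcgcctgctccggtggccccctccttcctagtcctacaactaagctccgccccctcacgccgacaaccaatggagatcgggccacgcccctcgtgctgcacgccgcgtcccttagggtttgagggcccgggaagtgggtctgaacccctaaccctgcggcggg
Bbs4, chr9:59353459-59353758, minus strand: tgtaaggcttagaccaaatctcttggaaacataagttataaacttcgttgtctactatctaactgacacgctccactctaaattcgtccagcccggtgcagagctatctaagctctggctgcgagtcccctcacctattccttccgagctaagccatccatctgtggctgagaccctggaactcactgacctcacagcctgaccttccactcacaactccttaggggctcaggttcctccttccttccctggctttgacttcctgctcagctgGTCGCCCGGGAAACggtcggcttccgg

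The 6 RFX factor genes that were listed (Rfx1, Rfx2, Rfx3, Rfx4, Rfx5 and Rfx7) were all above 0 in log2 difference, against 49.8% of all tested genes. Their median was 0.16, and Rfx1 (0.0029 ± 0.29, SE) and Rfx5 (0.01 ± 0.40, SE) were level between the groups. Rfx4, a factor of neural progenitors, was at 92.4, 35.4 and 54.3 CPM in mutant replicates 1, 2 and 3, against 30.1, 24.3 and 17.5 CPM in wild-type replicates 1, 2 and 3. Its groups did not overlap (1.34 ± 0.38, SE; edgeR unadjusted p = 0.00718, adjusted p = 1.00). Rfx2 was at 19.9, 10.9 and 6.13 CPM with mutant PRPF6, against 2.77, 6.64 and 3.13 CPM with wild-type PRPF6 (1.56 ± 0.63, SE; edgeR unadjusted p = 0.0392, adjusted p = 1.00). The Rfx2 groups overlapped, as mutant replicate 3 was below wild-type replicate 2. The other 4 differed by 0.0029 to 0.23, with standard errors of 0.19 to 0.4. Radial glia markers were higher in the same libraries, and their part in the Rfx4 values was not tested.

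Beyond the 40, 50 further primary cilium genes were listed by role, and 49 passed the filter on low counts. None of them passed the test either, with 27 higher and 22 lower and a median log2 difference of 0.068, and 3 stood at an unadjusted p under 0.05 (6.12%, against 3.38% of all tested genes). The groups did not overlap for 8 of the 49, 5 above and 3 below (16.3%, against 9.14% of all tested genes). The 3 genes of small p were Kifap3, described with the motors, Unc119b and Glis2. Unc119b, a carrier of lipid-bearing cargo that Arl3 unloads, was at 161, 145 and 150 CPM with mutant PRPF6, against 101, 101 and 116 CPM with wild-type PRPF6 (0.52 ± 0.15, SE; edgeR unadjusted p = 0.00726, adjusted p = 1.00). Glis2, a zinc-finger factor linked to nephronophthisis, was at 34.5, 19.7 and 23.4 CPM with mutant PRPF6, against 14.9, 11.5 and 16.4 CPM with wild-type PRPF6 (0.86 ± 0.33, SE). In both genes the lowest mutant library was above the highest wild-type library.

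Other genes of smallest p in their lists were Rab23, Rpgr, Arl6, Traf3ip1 and Rab3ip. Rab23, a GTPase that restrains Sonic hedgehog signalling, was at 36.5, 39.7 and 38.8 CPM with mutant PRPF6, against 27.0, 32.2 and 22.9 CPM with wild-type PRPF6, with no overlap (0.49 ± 0.23, SE). Rpgr, a transition zone regulator, was at 47.9, 51.3 and 33.5 CPM with mutant PRPF6, against 65.7, 59.8 and 60.8 CPM with wild-type PRPF6, also with no overlap (−0.49 ± 0.22, SE). Neither passed the test. Arl6, the GTPase that recruits the BBSome, was at 51.5, 31.0 and 40.7 CPM with mutant PRPF6, against 24.5, 30.6 and 32.4 CPM with wild-type PRPF6 (0.49 ± 0.26, SE). Traf3ip1, an IFT-B subunit gene, was at 26.6, 20.04 and 19.95 CPM with mutant PRPF6, against 17.7, 17.3 and 15.1 CPM with wild-type PRPF6 (0.41 ± 0.28, SE). Rab3ip, an activator of the GTPase Rab8a, was at 54.1, 43.5 and 46.8 CPM with mutant PRPF6, against 68.0, 43.7 and 50.4 CPM with wild-type PRPF6 (−0.17 ± 0.23, SE). Of these 3 genes, Arl6 and Rab3ip had overlapping groups and Traf3ip1 did not.

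Genes of motile cilia, which beat on ependymal cells and are not a part of the primary cilium, were mostly low. Of the 20 found, 16 passed the filter, 5 higher and 11 lower, and 0 were at an unadjusted p under 0.05. Their summed level was 64.2 to 162 CPM in the mutant libraries and 83.3 to 155 CPM in the wild-type libraries. Dnaic2, a dynein arm gene, was at 1.15, 2.15 and 1.46 CPM with mutant PRPF6, against 3.18, 2.56 and 6.19 CPM with wild-type PRPF6, with no overlap (log2 difference −1.32 ± 0.92, SE). Ccno, a cyclin of multiciliated cells, was at 1.82, 1.63 and 0.593 CPM with mutant PRPF6, against 0.0215, 12.6 and 4.93 CPM with wild-type PRPF6. Foxj1, the master factor of motile cilia, named after its values were seen, was at 42.1 CPM in mutant replicate 1 and at 2.49 to 19.8 CPM in the other libraries.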

How the data were processed

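The authors deposited 1 table of expected counts, with RSEM and mm10 named in the submitters' processing notes. The aligner, annotation and strand use behind it are unstated, so overlapping genes are uncertain. All 6 value columns were matched to samples by name. Counts were rounded, filtered with filterByExpr (14451 of 24041 genes left), scaled with TMM and compared in R 4.3.3 by the two-sided quasi-likelihood test of edgeR 4.0.16 (robust dispersions, group as the single term), with Benjamini-Hochberg adjustment over all tested genes and a threshold of 0.05. A standard error is the log2 difference divided by the root of its F statistic. CPM used library totals and TMM factors of 0.972 to 1.02, so 1 count was worth 0.0164 to 0.0228 CPM. No molecular identifiers are described, so reads may not be independent molecules.

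The members, roles and lists were chosen with earlier results of these data known. Values in every library were given for members whose groups do not overlap, the 2 of smallest p and the most abundant per length in each role, and the 2 of smallest p in each further cilium list; other members were named after their values were seen. Exon lengths are unions over GENCODE M21 basic transcripts, and promoters are RefSeq's on GRCm38.p6. Same-numbered libraries of the groups were treated as unpaired in the main fit. The correlations of their deviations cannot decide whether the numbers pair them. The fit was tested on simulated data for mutant against wild-type PRPF6 with 200 changed genes. With the fitted common biological variation of 0.663, 0% of 2-fold and 24.5% of 8-fold changes were recovered, over 15197 and 15211 genes, and at a variation of 0.1 96% of 2-fold changes were recovered over 15260 genes. Every simulated gene had the same variation. For the cilium genes the median SD was 23.0% of the mean in mutant and 20.7% in wild-type libraries. Neither setting matches that, so these shares do not give the chance of finding a change in a cilium gene.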

Additional observations from a re-analysis of the deposited data

How the results depend on the processing

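The count of 0 cilium genes past the adjusted threshold held under DESeq2 and upper-quartile scaling and without the low-count filter. It also held with limma-voom 3.58.1, a replicate block and every left-out library. With the test of DESeq2 1.42.0 it was 0 too, but 38 of the 40 genes had no adjusted p there and could not be called. Over all genes DESeq2 called 10, and it gave no adjusted p for 11213. Same-numbered libraries had correlations of 0.0543, 0.0609 and −0.256 between their deviations. With 3 libraries per group, these correlations cannot decide whether the numbers pair the libraries. With the replicate block 1 cilium gene, against 3, was at an unadjusted p under 0.05 (2.5%, against 2.12% of all tested genes in that fit), and the median log2 difference was −0.029. Leaving out 1 library in turn gave 1 to 4 such genes (1 without wild-type replicate 3), 17 to 22 higher genes and medians of −0.051 to 0.061, so the set's sign rests on single libraries. It also gave 6 to 9 genes without overlap (15% to 22.5%, against 16.5% to 23.7% of all tested genes), where all 6 libraries gave 4, as fewer libraries overlap less. That count was 4 under both other scalings, and settings that change only the test do not alter it. The median over 3 motor genes, −0.081, was −0.46 with limma-voom and −0.53 to 0.15 with 1 library left out. Signs held in every setting for 20 of 40 genes, Ttc21b, Kif3a, Bbs4 and Bbs9 included. A stricter X-box gave 4 promoters, against 11. The lowest count of a cilium gene in any library was 49, and the effect of depth was not tested.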
